A study of Mus musculus with 9 samples.

Results

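The expressed long intergenic non-coding RNAs (lincRNAs) of mouse adipose-derived stem cells (ASCs) were compared between 3 fat depots. They were the 144 genes, of 5559 annotated as lincRNA and 54532 genes in all, whose mean level reached 2 CPM (read counts divided by the library total and scaled to a common depth) over the 3 libraries of at least 1 depot. H19, Meg3 and 3110039M20Rik also reached this level and were left out. The cells came from C57BL/6 mice, with no genetic change or treatment given for any group. PVASCs were from perivascular, Ab-ASCs from abdominal and Sub-ASCs from subcutaneous adipose tissue. All were grown out of tissue digested with collagenase and dispase, in MEM-α with fetal bovine serum, leukaemia inhibitory factor and fibroblast growth factor, and harvested between passages 3 and 6. Age and sex of the mice are not given in the sources used here. Nothing states that the 3 libraries of a group came from separate mice or cultures, so p-values measure only the spread between these libraries, which may be technical.

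A lincRNA is a transcript longer than a small RNA that lies between protein-coding genes and is not translated into a known protein. Some lincRNAs stay in the nucleus and organise nuclear bodies or chromatin, some are cut into microRNAs or carry small nucleolar RNAs in their introns, and some are transcribed beside a developmental regulator in the same cells as that regulator. Many are present in few cell types only, which makes them useful as labels of where a cell came from.

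Members were chosen by their mean CPM per depot in these same libraries, so levels, counts and medians of the 144 members are a description of what was chosen. At the selection level were 57 members in all 3 depots, 42 in 2 depots and 45 in 1 depot. Of the last, 24 reached it only in Sub-ASCs, 18 only in PVASCs and 3 only in Ab-ASCs. By the rule the mean of such a member was highest in that depot, by however small a margin. The lowest members inside the cut were 1700096K18Rik at 2.04 CPM in Sub-ASCs, Gm19705 at 2.04 CPM in Ab-ASCs and AC154378.1 at 2.05 CPM in Sub-ASCs. The highest lincRNAs outside it were Gm4262 at 1.97, Gm20707 at 1.96 and Gm48832 at 1.94 CPM in their highest depot. Of the other lincRNA rows, 3195 had 0 reads in every library.

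Libraries held 20524173 to 29881036 counted reads. All lincRNAs together took 0.208% to 0.411% of the reads, and the 144 members took 83.7% to 92.2% of these. Levels below are CPM scaled by the trimmed mean of M-values (TMM), unless stated. Stromal markers were high in every group, with summed levels of 6870 to 7097 CPM in PVASCs, 8776 to 8891 CPM in Ab-ASCs and 10400 to 10560 CPM in Sub-ASCs, and single markers of the list went both ways between depots. Markers of other cell types differed between depots. The 5 endothelial markers summed to 713.5 to 722.8 CPM in PVASCs against 61.0 to 63.0 in Ab-ASCs and 167.2 to 181.3 in Sub-ASCs. The 8 mesothelial markers summed to 121.6 to 131.4 CPM in Ab-ASCs, 47.9 to 49.7 in PVASCs and 2.75 to 2.94 in Sub-ASCs, where Upk1b and Lrrn4 had 0 reads. The 4 smooth muscle markers lay at 4359 to 5418 CPM in Ab-ASCs, 2645 to 2790 in PVASCs and 58.6 to 63.3 in Sub-ASCs. The 6 macrophage markers summed to 302.2 to 394.6 CPM in Ab-ASCs, 291.4 to 300.4 in PVASCs and 239.0 to 243.6 in Sub-ASCs. Single macrophage markers went both ways, with 2 higher and 4 lower in PVASCs than in Sub-ASCs, and 2 higher and 4 lower in Ab-ASCs than in Sub-ASCs. The 4 adipocyte markers summed to 18.4 to 20.8 CPM in Sub-ASCs, 0.37 to 0.64 in PVASCs and 0.09 to 0.18 in Ab-ASCs, with Lep at 0 reads everywhere. Their part in the depot differences of the members was not tested, and in bulk RNA fewer cells of a type cannot be told apart from less RNA per cell.

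Most members were low and had few exons. In their highest depot 6 members exceeded 100 CPM, 28 lay between 10 and 100 CPM and 110 stayed under 10 CPM. Per length, the median of the members was 1.29 FPKM (TMM-scaled CPM per kilobase of gene length), with a range of 0.104 to 188 FPKM, against 4.95 FPKM for 13875 tested protein-coding genes. Their median length was 2534 bases, compared with 4386 bases for those protein-coding genes, and the median number of exons was 3, with 19 members of a single exon. They were spread over 20 chromosomes, with 13 on chromosome 5, 12 on chromosome 1 and 3 on X. The span of 73 members overlapped another gene, and 54 shared exon bases with one. The library kit did not mark the strand, so reads of a member and of a gene that overlaps it cannot be told apart.

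The summed level of the members was highest in Sub-ASCs. In CPM of the library totals, the sums were 3792, 3540 and 3623 in the Sub-ASC libraries, 2816, 2900 and 2983 in the PVASC libraries and 1796, 2201 and 2482 in the Ab-ASC libraries. The 3 groups did not overlap, and Ab-ASC replicate 1 was the lowest library. Malat1 alone held 51.7% to 52.5% of the member reads in Sub-ASCs, 43.9% to 47.8% in PVASCs and 25.6% to 37.5% in Ab-ASCs. Without it the groups came closer, with 1710 to 1817 CPM in Sub-ASCs, 1513 to 1578 in PVASCs and 1336 to 1550 in Ab-ASCs, so PVASC and Ab-ASC libraries overlapped. Replicates were close for most members. The median coefficient of variation was 8.41% (PVASCs), 12.2% over the Ab-ASC libraries and 10% over the Sub-ASC libraries, for members at 2 CPM or more there. The library most often lowest in its group was PVASC replicate 2, in 50 of 108 such members, Ab-ASC replicate 1, in 39 of 85, and Sub-ASC replicate 3, in 39 of 104.

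**Figure D1:**
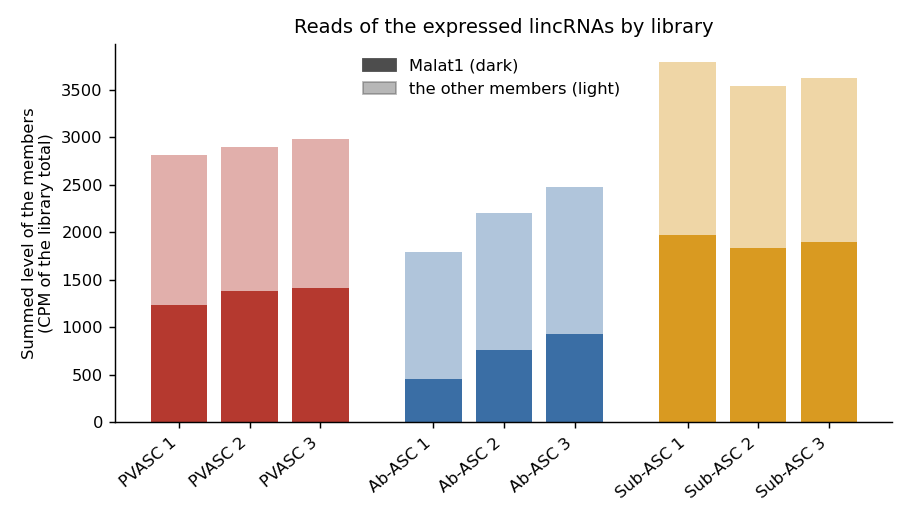
Summed level of the 144 lincRNAs in each of the 9 libraries, in CPM of library totals, with Malat1 drawn apart from the other 143. The 3 Sub-ASC libraries reach 3540 to 3792 CPM and the Ab-ASC libraries 1796 to 2482 CPM, and most of this gap lies in the Malat1 part.

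Differential expression was tested in edgeR by the quasi-likelihood test over 16526 genes, with Benjamini-Hochberg adjustment over all of them and a threshold of 0.05. All 144 members had enough reads to be tested. Between PVASCs and Sub-ASCs, 58 members were higher and 54 lower in PVASCs, 112 in all. Of all genes tested, 70.4% were called in this comparison, 34.7% higher and 35.7% lower. Between PVASCs and Ab-ASCs, 66 members were higher and 28 lower in PVASCs, 94 in all, where 56.9% of all genes were called, 24.7% higher and 32.1% lower. Between Ab-ASCs and Sub-ASCs, 49 were higher and 67 lower in Ab-ASCs, 116 in all, where 75.3% of all genes were called, 37.0% higher and 38.3% lower. In at least 1 comparison 128 members were called (84.6% of all genes were), and the 16 others did not pass. The median log2 fold change of the members was -0.02 for PVASCs against Sub-ASCs, where it was -0.01 for all genes. It was 0.35 for PVASCs against Ab-ASCs (-0.06 for all genes) and -0.32 for Ab-ASCs against Sub-ASCs (-0.03 for all genes). The lowest and highest libraries of the groups did not overlap for 116, 103 and 122 members in the same order, and for 77.3%, 63.9% and 76.5% of all genes tested. Since the rule chose members by their level in these libraries, nothing was read from these counts. Counts over gene lists below likewise stand beside these shares of all genes, and nothing particular to a list was tested.

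For each member the depots with the lowest and the highest mean were counted, on the means that the rule used. The mean was lowest in Ab-ASCs for 71 members, in Sub-ASCs for 58 and in PVASCs for 15, and highest in Sub-ASCs for 64, in PVASCs for 50 and in Ab-ASCs for 30. No share of all genes stands beside these counts of means, and nothing was read from them. Called higher than in both other groups were 49 members in Sub-ASCs (28.7% of all genes tested), 28 in PVASCs (10.2%) and 18 in Ab-ASCs (20.9%). Called lower than in both were 44 members in Sub-ASCs (27.5%), 39 in Ab-ASCs (15.6%) and 10 in PVASCs (12.0%). Among the 57 members that reached 2 CPM in every depot, 42 were called between PVASCs and Sub-ASCs (21 higher, 21 lower), 36 between PVASCs and Ab-ASCs (22 higher, 14 lower) and 41 between Ab-ASCs and Sub-ASCs (20 higher, 21 lower). These were 73.7%, 63.2% and 71.9% of the 57, beside 70.4%, 56.9% and 75.3% of all genes tested. The 57 were not chosen through 1 group alone but were still chosen by level, and nothing was read from these counts.

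**Figure D2:**
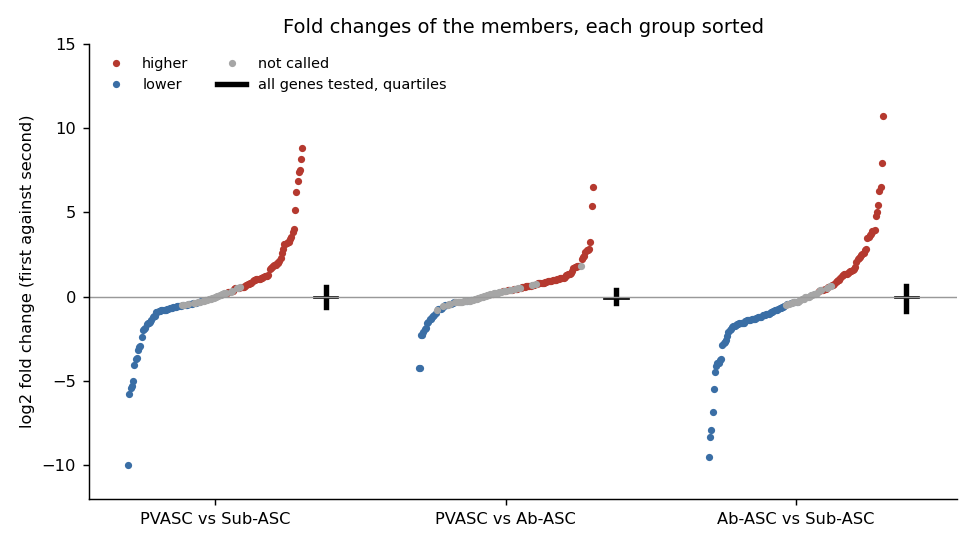
log2 fold changes of the 144 lincRNAs from the edgeR fit, sorted within each of the 3 comparisons, with red for higher, blue for lower and grey for not called, and a bar for the quartiles of all 16526 genes. Points reach beyond 5 in both directions in each comparison with Sub-ASCs, and those of members with 0 to 3 reads in a group depend on the prior count of the fit.

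The nuclear RNAs among the members included the most abundant one. Malat1, a nuclear speckle RNA at chr19:5795690-5802672 on the minus strand (GRCm38), was the most abundant member per length, with 176.5, 109.8 and 278.4 FPKM in PVASCs, Ab-ASCs and Sub-ASCs. Its levels were 1130, 1276 and 1291 CPM in the PVASC libraries, 507.4, 803.1 and 989.6 CPM in the Ab-ASC libraries, and 2017, 1867 and 1947 CPM in the Sub-ASC libraries. The groups did not overlap, and the Ab-ASC libraries were the most spread. PVASCs were lower than Sub-ASCs by a log2 fold change of -0.66 (SE 0.171, adjusted p = 0.00431) and higher than Ab-ASCs by 0.68 (SE 0.172, adjusted p = 0.00487), the latter falling to 0.46 without Ab-ASC replicate 1. Ab-ASCs were lower than Sub-ASCs by -1.34 (SE 0.174, adjusted p = 1.65e-05).

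Neat1, the RNA scaffold of paraspeckles, lies 22036 bases from Malat1 on the same strand, at chr19:5824708-5845478, and is the longest member at 20771 bases. It measured 166.9, 154.5 and 167.6 CPM in PVASCs, 118.5, 151.1 and 192.1 CPM in Ab-ASCs, and 417.8, 333.9 and 380.9 CPM in Sub-ASCs. Every Sub-ASC library lay above every other library, and PVASCs and Ab-ASCs overlapped. The log2 fold change was -1.21 for PVASCs against Sub-ASCs (SE 0.138, adjusted p = 5.73e-06) and -1.29 for Ab-ASCs against Sub-ASCs (SE 0.139, adjusted p = 3.02e-06). Against Ab-ASCs, the PVASC value of 0.08 did not pass (adjusted p = 0.635). Genes of the proteins that assemble with Neat1 were also counted. Of 12 paraspeckle protein genes, 11 were higher in PVASCs than in Sub-ASCs, with a median of 0.50 over the list, and 11 were higher in Ab-ASCs than in Sub-ASCs, with a median of 0.56. Of all genes tested, 34.7% and 37.0% were higher in these comparisons. Examples were Pspc1 at 0.89, Nono at 0.52 and Sfpq at 0.50 for PVASCs against Sub-ASCs, whereas Cpsf7 at -0.10 was not called.

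Other nuclear or chromatin RNAs of the members were 2900097C17Rik, 1700020I14Rik, Ftx and Lncpint. 2900097C17Rik had 187.6, 187.2 and 186.2 CPM in PVASCs, 146.5, 179.3 and 167.3 CPM in Ab-ASCs, and 270.4, 248.8 and 265.3 CPM in Sub-ASCs, so the PVASC libraries differed by less than 2 CPM and Sub-ASCs stood above. It was lower in PVASCs than in Sub-ASCs (log2 -0.48, adjusted p = 4.17e-05), and its difference from Ab-ASCs of 0.19 (adjusted p = 0.0367) did not pass without Ab-ASC replicate 1 (0.11, adjusted p = 0.0694) or 3, any 1 PVASC library or Sub-ASC replicate 3. With the replicate number as a block this difference did not pass either (0.19, adjusted p = 0.0524). 1700020I14Rik had 80.9, 79.2 and 82.0 CPM in PVASCs, 25.2, 44.6 and 41.6 CPM in Ab-ASCs, and 118.5, 125.0 and 105.1 CPM in Sub-ASCs, in 3 separate ranges. Its log2 fold change was 1.11 for PVASCs against Ab-ASCs (adjusted p = 7.79e-05) and -0.53 against Sub-ASCs (adjusted p = 0.00711), and the latter did not pass with library totals unscaled (-0.37, adjusted p = 0.0644). Ftx, an X-linked RNA of the X-inactivation centre, was at 4.95, 4.51 and 6.08 CPM in PVASCs, 2.04, 3.07 and 2.32 CPM in Ab-ASCs, and 6.01, 4.52 and 5.15 CPM in Sub-ASCs. Ab-ASCs were below both others without overlap, with a log2 fold change of 1.05 for PVASCs against Ab-ASCs (adjusted p = 0.000427) and -1.06 for Ab-ASCs against Sub-ASCs (adjusted p = 0.000232). Lncpint, a target of p53, behaved differently, with 4.86, 4.51 and 4.77 CPM in PVASCs, 2.90, 5.29 and 6.82 CPM in Ab-ASCs, and 1.76, 1.61 and 2.63 CPM in Sub-ASCs. It was higher in PVASCs (log2 1.23, SE 0.268, adjusted p = 0.00129) and in Ab-ASCs (1.33, adjusted p = 0.000802) than in Sub-ASCs.

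Over the list of nuclear and chromatin RNAs, members or not, 13 genes were tested. Against Ab-ASCs, 9 were higher and 0 lower in PVASCs, where 24.7% of all genes were higher and 32.1% lower. Against Sub-ASCs, 1 was higher and 10 were lower in Ab-ASCs, where 37.0% of all genes were higher and 38.3% lower. In PVASCs 1 was higher and 6 were lower than in Sub-ASCs, beside 34.7% and 35.7% of all genes. Firre, which anchors chromatin regions to each other, was higher in PVASCs than in Ab-ASCs by 0.96 and lower than in Sub-ASCs by -0.57. Tug1 rose by 0.58 in PVASCs against Ab-ASCs, and its value of -0.27 against Sub-ASCs did not pass.

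The 6 members with the highest FPKM were Malat1, 2900097C17Rik, Gm26917, AW112010, Gm10076 and 3300005D01Rik. Gm26917, at chr17:39843013-39846341 on the plus strand, had 109.2, 98.5 and 102.9 CPM in PVASCs, 249.8, 207.4 and 313.0 CPM in Ab-ASCs, and 53.3, 39.7 and 56.5 CPM in Sub-ASCs, again without overlap. It was lower in PVASCs than in Ab-ASCs by a log2 fold change of -1.31 (SE 0.144, adjusted p = 1.12e-05) and higher than in Sub-ASCs by 1.06 (SE 0.147, adjusted p = 3.55e-05). In this build Gm26917 lies at a copy of the ribosomal RNA precursor, so reads of ribosomal RNA may have been counted in it and its values are uncertain. Gm10076 was at 9.19 to 18.6 CPM in all 9 libraries and was not called, but it passed between PVASCs and Ab-ASCs without Ab-ASC replicate 1 (-0.45, adjusted p = 0.0161) and with no low-count filter (-0.33, adjusted p = 0.0105). Without Ab-ASC replicate 3 this value was -0.11. 3300005D01Rik and AW112010 are described with the depot in which they were highest.

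A further group of members carried microRNAs. A microRNA host transcript is cut in the nucleus into hairpins, from which mature microRNAs of about the length of the sequences below are made, and each recognises targets by its seed. On their own strand 10 members held an annotated hairpin, with 29 hairpins in all. The mature sequences below are from RefSeq (GRCm38.p6) and are shown to identify what these hosts carry, from hosts with large and small differences between depots, with the seed, bases 2 to 8, in capitals. The values that follow are of the host RNA, and mature microRNAs were not measured. From Mir17hg, which holds 6 hairpins, 2 pairs shared a seed and the other 2 sequences had their own.
miR-17-5p: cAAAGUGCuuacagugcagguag
miR-20a-5p: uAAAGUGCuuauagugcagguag
miR-19a-3p: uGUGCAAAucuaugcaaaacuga
miR-19b-3p: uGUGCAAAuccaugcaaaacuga
miR-18a-5p: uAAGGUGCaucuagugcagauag
miR-92a-3p: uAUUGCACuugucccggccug
Mirg holds 14 hairpins, of which miR-134, miR-382 and miR-410 are shown with different seeds.
miR-134-5p: uGUGACUGguugaccagagggg
miR-382-5p: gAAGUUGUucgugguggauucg
miR-410-3p: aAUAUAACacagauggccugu
AL805899.1 holds miR-31, E130102H24Rik holds miR-101a, Mir155hg holds miR-155 and 6720427I07Rik holds let-7d.
miR-31-5p: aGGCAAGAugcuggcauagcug
miR-101a-3p: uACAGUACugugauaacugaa
miR-155-5p: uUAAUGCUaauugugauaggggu
let-7d-5p: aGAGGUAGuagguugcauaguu

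AL805899.1, the host of miR-31 at chr4:88909855-88938521 on the minus strand, was the host with the largest difference between PVASCs and Sub-ASCs. Its levels were 6.91, 6.68 and 7.13 CPM in PVASCs, 0.64, 0.71 and 0.85 CPM in Ab-ASCs, and 0, 0.04 and 0.11 CPM in Sub-ASCs, from 0, 1 and 3 reads. The 3 groups did not overlap. PVASCs were higher than Ab-ASCs by a log2 fold change of 3.22 (SE 0.200, adjusted p = 6.79e-08) and higher than Sub-ASCs by 6.89 (SE 0.309, adjusted p = 6.67e-10), where the value was 8.09 without Sub-ASC replicate 3. Ab-ASCs were higher than Sub-ASCs by 3.68 (adjusted p = 2.41e-05), or 4.87 without that library.

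Mirg, at chr12:109729764-109749460 on the plus strand with 17 exons, belongs to the imprinted Dlk1-Dio3 region. It had 8.83, 9.12 and 8.84 CPM in PVASCs, 5.96, 6.71 and 5.98 CPM in Ab-ASCs, and 0.47, 0.43 and 0.72 CPM in Sub-ASCs, with 3 separate ranges. It was higher in PVASCs than in Sub-ASCs by 4.02 (SE 0.163, adjusted p = 2.57e-10), higher in Ab-ASCs than in Sub-ASCs by 3.5 (SE 0.175, adjusted p = 1.88e-09), and higher in PVASCs than in Ab-ASCs by 0.52 (SE 0.112, adjusted p = 0.00185). Rian, the snoRNA host of the same region and not annotated as lincRNA, gave 3.95, 3.37 and 0.59 for these comparisons, at mean levels of 295.2 CPM in PVASCs, 196.7 CPM in Ab-ASCs and 19.1 CPM in Sub-ASCs.

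Mir17hg, the host of the miR-17-92 cluster, which promotes growth, lies at chr14:115042879-115046727 on the plus strand. Its levels fell from 9.26, 8.61 and 10.1 CPM in PVASCs to 4.24, 5.96 and 4.77 CPM in Ab-ASCs and to 2.15, 2.0 and 2.17 CPM in Sub-ASCs. The ranges were separate, with log2 fold changes of 2.14 for PVASCs against Sub-ASCs (SE 0.142, adjusted p = 3.02e-08), 0.89 for PVASCs against Ab-ASCs (SE 0.127, adjusted p = 9.37e-05) and 1.25 for Ab-ASCs against Sub-ASCs (SE 0.156, adjusted p = 1.23e-05). Beside this, 5 proliferation markers summed to 525.9 to 538.6 CPM in PVASCs, 462.1 to 565.8 in Ab-ASCs and 48.2 to 54.0 in Sub-ASCs, and their part was not tested.

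E130102H24Rik, the host of miR-101a at chr4:101346531-101356735 on the minus strand, was higher in Sub-ASCs than in both other groups. It had 0.79, 0.64 and 0.54 CPM in PVASCs, 0.16, 0.62 and 0.36 CPM in Ab-ASCs, and 6.61, 5.23 and 6.10 CPM in Sub-ASCs. PVASCs and Ab-ASCs overlapped far below Sub-ASCs, and the log2 fold changes against Sub-ASCs were -3.17 (SE 0.232, adjusted p = 8.26e-08) and -3.91 (SE 0.278, adjusted p = 5.77e-08).

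Of the remaining hosts, Ftx, which holds miR-421 and miR-374b, is given above with the nuclear RNAs. Mir155hg, whose microRNA is known from immune activation, had 2.90, 2.85 and 3.05 CPM in PVASCs, 1.45, 3.20 and 2.59 CPM in Ab-ASCs, and 3.86, 3.46 and 2.94 CPM in Sub-ASCs. It was not called, but its value for Ab-ASCs against Sub-ASCs of -0.48 passed without Ab-ASC replicate 2 (-0.72, adjusted p = 0.0138) and with no low-count filter (-0.47, adjusted p = 0.0339). Without Ab-ASC replicate 1 this value was -0.23. 6720427I07Rik, the host of let-7d, was higher in PVASCs than in Ab-ASCs by 0.55 (adjusted p = 0.00883). Its value for Ab-ASCs against Sub-ASCs of -0.39 (adjusted p = 0.0432) did not pass under most other settings, such as without Sub-ASC replicate 2 (-0.24, adjusted p = 0.195). Gm37233, which holds miR-5103, was higher in PVASCs than in Ab-ASCs by 0.47 (adjusted p = 0.0129, or 0.37 and 0.0623 without PVASC replicate 1) and lower in Ab-ASCs than in Sub-ASCs by -0.67 (adjusted p = 0.000861). Snhg20 was between 5.95 and 7.55 CPM in every library with no call. 2900076A07Rik was between 1.73 and 2.63 CPM, and its lower level in Ab-ASCs than in Sub-ASCs (-0.46, adjusted p = 0.0304) did not pass without any 1 of the Ab-ASC libraries, without Sub-ASC replicate 1 or 3, or with DESeq2. Of the microRNA host list, 10 genes were tested. Against Ab-ASCs, 8 were higher and 0 lower in PVASCs. Against Sub-ASCs, 4 were higher and 2 lower in PVASCs, and 3 were higher and 4 lower in Ab-ASCs. Dnm3os, the host of miR-199a and miR-214 and not a member, was among those higher in PVASCs than in Ab-ASCs, by 1.53. Genes of microRNA processing were mixed, with 5 of 10 higher and 3 lower in PVASCs than in Sub-ASCs, such as Tarbp2 at 1.07, Dgcr8 at 0.51 and Ago4 at -0.81.

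**Figure D3:**
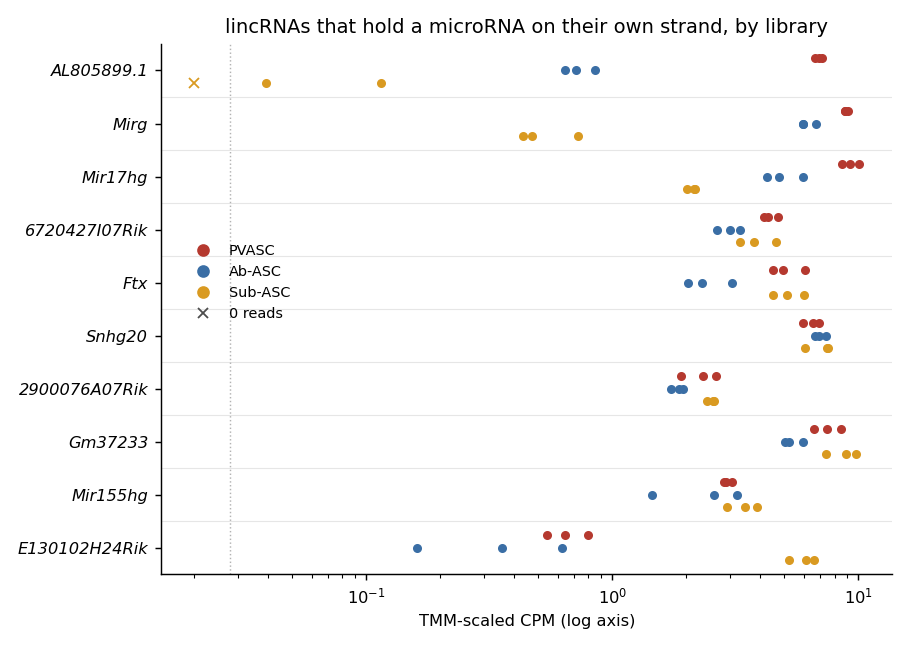
Levels of the 10 lincRNAs that hold a microRNA hairpin on their own strand, in TMM-scaled CPM on a log axis, 1 point per library and crosses for 0 reads. AL805899.1 (miR-31), Mirg and Mir17hg run from high in PVASCs to low in Sub-ASCs in separate ranges, and E130102H24Rik (miR-101a) is high in Sub-ASCs.

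Hosts of small nucleolar RNAs (snoRNAs), which guide chemical modification of ribosomal RNA and are released from the introns of these transcripts, included 5 members. Snhg6 had 23.8, 20.3 and 20.6 CPM in PVASCs, 26.2, 25.7 and 22.3 CPM in Ab-ASCs, and 11.9, 13.6 and 13.3 CPM in Sub-ASCs, so Sub-ASCs lay below both others. The log2 fold change was 0.74 for PVASCs (adjusted p = 1.67e-05) and 0.93 for Ab-ASCs (adjusted p = 1.99e-06) against Sub-ASCs. Snhg12 differed less, by 0.25 (adjusted p = 0.0135) and 0.46 (adjusted p = 0.00023), and its lower level in PVASCs than in Ab-ASCs (-0.21, adjusted p = 0.0399) did not pass under most other settings and had the opposite sign with library totals unscaled, at 0.02. Snhg18 went the other way, with 22.1, 22.1 and 21.9 CPM in PVASCs, 29.5, 23.7 and 25.6 CPM in Ab-ASCs, and 36.2, 31.1 and 31.4 CPM in Sub-ASCs. It was lower in PVASCs than in Sub-ASCs by -0.58 (adjusted p = 7.4e-05). Epb41l4aos was close to the threshold. Its value for Ab-ASCs against Sub-ASCs of 0.40 (adjusted p = 0.0379) did not pass without Ab-ASC replicate 1 (0.30) or 2 (0.41), or without Sub-ASC replicate 2 (0.24) or 3 (0.40). Its value for PVASCs against Sub-ASCs of 0.30 did not pass, but did without Sub-ASC replicate 1 (0.46, adjusted p = 0.0191) or Ab-ASC replicate 1 (0.30, adjusted p = 0.0374). Without Sub-ASC replicate 2 this value was 0.14. Snhg20 was not called. Over the list, 18 genes were tested, with 10 higher and 2 lower in PVASCs than in Sub-ASCs, 10 higher and 3 lower in Ab-ASCs than in Sub-ASCs, and 3 higher and 2 lower in PVASCs than in Ab-ASCs. Among those that were not members, Snhg4 stood 1.97 and Dancr 1.77 higher in PVASCs than in Sub-ASCs. The proliferation markers given above were lower in Sub-ASCs too, and their part was not tested.

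Several members beside developmental regulators differed between all 3 depots. Gm53 lies beside Hoxb9, a homeobox gene of the trunk, on chromosome 11. It had 4.25, 3.39 and 4.36 CPM in PVASCs, 2.42, 2.13 and 1.47 CPM in Ab-ASCs, and 0.09, 0.63 and 0.53 CPM in Sub-ASCs, in 3 separate ranges. It was higher in PVASCs than in Sub-ASCs by 3.22 (SE 0.344, adjusted p = 3.15e-06) and than in Ab-ASCs by 1.01 (adjusted p = 0.00721). Hoxb9 itself had 27.7, 25.3 and 24.3 CPM in PVASCs, 5.15, 4.09 and 4.10 CPM in Ab-ASCs, and 1.67, 1.34 and 1.49 CPM in Sub-ASCs, in the same order. Of 7 tested non-coding genes of the Hox clusters, 6 were higher and 1 was lower in PVASCs than in Sub-ASCs, and 4 were higher and 0 lower in PVASCs than in Ab-ASCs. Hoxb5os at 2.5 was among the higher and Hoxd3os1 at -0.92 was the lower one.

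Bvht and Carmn, neighbours on chromosome 18 known from heart and smooth muscle development, were highest in PVASCs. Bvht had 10.5, 10.2 and 11 CPM in PVASCs, 6.34, 9.74 and 7.36 CPM in Ab-ASCs, and 4.94, 4.17 and 4.65 CPM in Sub-ASCs. Its ranges were separate, and PVASCs were higher than Sub-ASCs by 1.21 (adjusted p = 7.71e-06) and than Ab-ASCs by 0.43 (adjusted p = 0.0169), the latter not passing without Ab-ASC replicate 3 (0.38, adjusted p = 0.0619) or PVASC replicate 3 (0.40, adjusted p = 0.0565). Carmn had 3.73, 3.63 and 4.01 CPM in PVASCs, 2.74, 2.36 and 2.68 CPM in Ab-ASCs, and 2.62, 2.24 and 1.91 CPM in Sub-ASCs, where the last 2 groups overlapped. It was higher in PVASCs by 0.75 against Sub-ASCs (adjusted p = 0.000622) and by 0.55 against Ab-ASCs (adjusted p = 0.00767). Over 7 tested genes of the list beside developmental factors, 6 were higher and 0 lower in PVASCs than in Sub-ASCs, and 5 higher and 1 lower in PVASCs than in Ab-ASCs. Fendrr, beside Foxf1, was higher in PVASCs than in Ab-ASCs by 3.77, and the lower one was Wt1os, beside the mesothelial gene Wt1, at -1.91. Between Ab-ASCs and Sub-ASCs 3 were higher and 1 lower.

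A pair of members that start beside a limb or trunk regulator were high in Sub-ASCs and almost unread in Ab-ASCs. Gm43050, at chr5:119828448-119831920 on the minus strand, starts 748 bases head to head from Tbx5, a T-box factor of heart and forelimb. It had 0.55, 0.34 and 0.45 CPM in PVASCs, 0 reads in every Ab-ASC library, and 3.35, 3.58 and 3.81 CPM in Sub-ASCs. Against a floor of 3 reads per library, its excess over Ab-ASCs was at least 25.1-fold in Sub-ASCs and at least 3.12-fold in PVASCs, and PVASCs were lower than Sub-ASCs by a log2 fold change of -2.99 (SE 0.231, adjusted p = 7.98e-07). Tbx5 also had 0 reads in Ab-ASCs, 3.58, 3.15 and 3.63 CPM in PVASCs and 13.7, 15.3 and 15.6 CPM in Sub-ASCs.

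Gm20554, at chr13:72626213-72628564 on the minus strand, starts 256 bases head to head from Irx2, an Iroquois homeobox gene. It had 0.95, 1.05 and 0.57 CPM in PVASCs, 1 read in all in Ab-ASCs, and 6.53, 6.33 and 6.71 CPM in Sub-ASCs. PVASCs were lower than Sub-ASCs by -2.92 (SE 0.200, adjusted p = 4.2e-08). The ratio to Ab-ASCs was 54.3 for PVASCs (counting interval 9.47 to 2170) and 415 for Sub-ASCs (counting interval 74.1 to 16400). Irx2 followed with 5.14, 4.95 and 5.19 CPM in PVASCs, 0.38, 0.36 and 0.22 CPM in Ab-ASCs, and 33.2, 32.5 and 34.6 CPM in Sub-ASCs. The promoter of Gm20554 is shown because it lies between this pair, at chr13:72628515-72628814 on the minus strand (RefSeq, GRCm38.p6), 250 bases before to 50 after the start, with GGGCGG and its reverse complement in capitals.
Gm20554: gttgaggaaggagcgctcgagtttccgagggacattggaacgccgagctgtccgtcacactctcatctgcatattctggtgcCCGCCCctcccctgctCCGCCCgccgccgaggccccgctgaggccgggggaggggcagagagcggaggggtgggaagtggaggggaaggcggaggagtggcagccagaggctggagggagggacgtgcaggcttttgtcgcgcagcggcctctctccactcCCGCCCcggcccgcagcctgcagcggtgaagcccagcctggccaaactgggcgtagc

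Among the lincRNAs known from inflammation and interferon responses, members moved in both directions. AW112010, at chr19:11047617-11050566 on the minus strand, is induced in immune cells by infection and cytokines. It was close to absent in PVASCs, with 3, 1 and 3 reads or 0.03 to 0.10 CPM, stayed at 0.38, 0.18 and 0.45 CPM in Ab-ASCs, and reached 79.7, 81.8 and 76.8 CPM in Sub-ASCs. No groups overlapped. PVASCs were lower than Sub-ASCs by a log2 fold change of -9.96 (SE 0.166, adjusted p = 9.74e-14), Ab-ASCs were lower than Sub-ASCs by -7.89 (SE 0.146, adjusted p = 2.21e-13), and PVASCs were lower than Ab-ASCs by -2.08 (SE 0.464, adjusted p = 0.0024). No other member had a lower value for PVASCs against Sub-ASCs. Beside it, 8 of 8 interferon response genes were lower in PVASCs and in Ab-ASCs than in Sub-ASCs, with summed levels of 88.8 to 89.3 CPM in PVASCs, 87.2 to 96.3 CPM in Ab-ASCs and 1705 to 1800 CPM in Sub-ASCs, and the part of that response in the result was not tested.

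9330175E14Rik lies on the opposite strand of Nlrc5, a regulator of MHC class I genes, on chromosome 8 and shares exon bases with it. It had 0.12, 0.27 and 0.19 CPM in PVASCs, 0.38, 0.44 and 0.80 CPM in Ab-ASCs, and 7.73, 8.65 and 8.96 CPM in Sub-ASCs. PVASCs were lower than Sub-ASCs by -5.42 (SE 0.245, adjusted p = 7.13e-10) and Ab-ASCs by -3.93 (SE 0.222, adjusted p = 6.09e-09). Nlrc5 had 3.79, 4.27 and 4.42 CPM in PVASCs, 3.60, 3.07 and 3.61 CPM in Ab-ASCs, and 139.8, 152.3 and 133.3 CPM in Sub-ASCs, and reads of the pair cannot be told apart without strand.

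Ptgs2os2 lies beside Ptgs2, the inducible cyclooxygenase, on the opposite strand of chromosome 1. It had 3.76, 4.44 and 3.59 CPM in PVASCs, 3.17, 3.82 and 4.10 CPM in Ab-ASCs, and 0.73, 0.71 and 0.53 CPM in Sub-ASCs, so PVASCs and Ab-ASCs overlapped above Sub-ASCs. The log2 fold change was 2.58 for PVASCs (SE 0.197, adjusted p = 1.25e-07) and 2.50 for Ab-ASCs (adjusted p = 2.38e-07) against Sub-ASCs. Ptgs2 had 299.3, 298.8 and 292.6 CPM in PVASCs, 496.6, 677.7 and 610.6 CPM in Ab-ASCs, and 20.6, 24.8 and 24.6 CPM in Sub-ASCs. Gm14005, which lies near Bcl2l11, a gene of cell death, had 15.6, 18.2 and 18.9 CPM in PVASCs, 26.3, 20.54 and 19.9 CPM in Ab-ASCs, and 7.99, 7.04 and 7.67 CPM in Sub-ASCs. It was higher in PVASCs by 1.22 (adjusted p = 1.86e-06) and in Ab-ASCs by 1.55 (adjusted p = 1.8e-07) than in Sub-ASCs. Of 10 tested genes of the list, 4 were higher and 4 lower in PVASCs than in Sub-ASCs, 2 higher and 4 lower in PVASCs than in Ab-ASCs, and 5 higher and 4 lower in Ab-ASCs than in Sub-ASCs.

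Promoters were compared because AW112010 and the interferon response genes were high in the same libraries. Sequence from 250 bases before to 50 after the start was matched for 61 members in RefSeq (GRCm38.p6). On either strand, the core of the interferon-stimulated response element, a GAAA repeat with any 2 bases between its copies, was in 3 of the 61 (4.92%) and in 3.44% of all 32851 promoters. The 3 were Gm26797, Gm36107 and Ptgs2os2. AW112010 at chr19:11050517-11050816 on the minus strand had no match to it, nor to the other motifs named next, and Ptgs2os2 at chr1:150164899-150165198 on the minus strand had 1, in capitals here as its reverse complement.
AW112010: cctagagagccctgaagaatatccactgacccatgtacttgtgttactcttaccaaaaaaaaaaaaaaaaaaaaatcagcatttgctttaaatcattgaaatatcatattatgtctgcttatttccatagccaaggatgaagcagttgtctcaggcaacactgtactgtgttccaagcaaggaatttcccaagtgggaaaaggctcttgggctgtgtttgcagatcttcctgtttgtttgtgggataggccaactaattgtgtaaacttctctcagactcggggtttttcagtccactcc
Ptgs2os2: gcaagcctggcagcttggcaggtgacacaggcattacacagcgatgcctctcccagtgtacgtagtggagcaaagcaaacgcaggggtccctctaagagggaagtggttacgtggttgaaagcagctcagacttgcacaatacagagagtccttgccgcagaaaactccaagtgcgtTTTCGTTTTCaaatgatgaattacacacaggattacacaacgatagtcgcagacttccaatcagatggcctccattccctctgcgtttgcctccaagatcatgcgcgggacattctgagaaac
The other motifs were searched on both strands too. The CCAAT box was in 39.3% of the member promoters and 37.4% of all. TATAAA, a form of the TATA box, was in 13.1% and 13.6%. The letters bound by Sp1, GGGCGG, were in 52.5% and 35.7%. The median GC content was 56.0% in members and 52.7% in all, and the ratio of observed to expected CpG was 0.646 and 0.384. The 32851 promoters were not limited to expressed genes, whereas members were chosen by level, so the 2 sets are unlike. A match is a description of letters only.

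Of 8 genes known from growth control and p53, 3 were higher and 0 lower in PVASCs than in Sub-ASCs, and 5 were higher and 0 lower in PVASCs than in Ab-ASCs. Between Ab-ASCs and Sub-ASCs 2 were higher and 2 lower. Besides Mir17hg and Lncpint, the list held the member Pvt1, the neighbour of Myc, with 9.35, 10.1 and 9.45 CPM in PVASCs, 6.87, 7.42 and 7.54 CPM in Ab-ASCs, and 9.15, 7.31 and 7.28 CPM in Sub-ASCs. It was higher in PVASCs than in Ab-ASCs by 0.40 (adjusted p = 0.00748), with no overlap, and its difference of 0.29 from Sub-ASCs (adjusted p = 0.0283) did not pass without PVASC replicate 2 (0.26), Sub-ASC replicate 2 (0.24) or Sub-ASC replicate 3 (0.23).

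Beyond these lists, the members highest in 1 depot were taken by the smaller of their fold changes against the other depots. In PVASCs the first were AL805899.1, AI504432, Wincr1, Gm6634, D330050G23Rik and C130083M11Rik. Wincr1, a Wnt-induced RNA, at chr4:89050308-89084614 on the plus strand, lies 111787 bases from AL805899.1. It had 5.23, 5.29 and 5.57 CPM in PVASCs, 0.86, 0.62 and 0.89 CPM in Ab-ASCs, and 1 read in all in Sub-ASCs. PVASCs were higher than Ab-ASCs by 2.76 (SE 0.196, adjusted p = 2.25e-07), and the ratio to Sub-ASCs was 402 for PVASCs (counting interval 71.8 to 15900) and 59.0 for Ab-ASCs (counting interval 10.1 to 2380). Gm6634 had 6.69, 5.53 and 6.97 CPM in PVASCs, 0.43, 1.51 and 1.07 CPM in Ab-ASCs, and 0.47, 0.79 and 0.88 CPM in Sub-ASCs, and was higher in PVASCs by 2.63 and 3.15 (adjusted p = 6.33e-06 and 5.37e-07). C130083M11Rik had 7.89, 7.80 and 6.30 CPM in PVASCs and 1.77 to 2.66 CPM in the 6 other libraries. AI504432, which lies 1434 bases from the potassium channel gene Kcna3, had 1.8, 2.14 and 1.85 CPM in PVASCs and 0.05 to 0.45 CPM in the others, and Kcna3 was higher in PVASCs by 3.66 against Ab-ASCs and 2.56 against Sub-ASCs. Of the 5 endothelial markers, 4 were highest in PVASCs and Tek in Sub-ASCs, and their part was not tested.

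In Ab-ASCs the first were Gm45897, 6430584L05Rik, 3300005D01Rik, Gm32255, Gm26809 and 1700017M07Rik. 3300005D01Rik on chromosome 17 was the most abundant, with 27.9 FPKM over all libraries. It had 21.2, 24.5 and 23.6 CPM in PVASCs, 103.1, 76.3 and 80.2 CPM in Ab-ASCs, and 6.35, 5.54 and 5.26 CPM in Sub-ASCs. The ranges were wide apart, with log2 fold changes of -1.91 for PVASCs against Ab-ASCs (SE 0.111, adjusted p = 3.74e-08), 2.01 for PVASCs against Sub-ASCs (SE 0.131, adjusted p = 2.66e-08) and 3.92 for Ab-ASCs against Sub-ASCs (SE 0.130, adjusted p = 3.86e-11). Gm26809 had 46.0, 53.1 and 47.2 CPM in Ab-ASCs and 14.9 to 18.7 CPM in the 6 other libraries, and it shares exon bases with Gm20186. Gm45897 had 2.79, 2.80 and 2.63 CPM in Ab-ASCs and at most 0.16 CPM elsewhere.

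Gm32255, on chromosome 10 head to head with Egr2, an early growth response factor, had 2.78, 1.93 and 1.81 CPM in PVASCs, 7.79, 6.98 and 9.41 CPM in Ab-ASCs, and 0 reads in every Sub-ASC library. Its excess over Sub-ASCs was at least 66.9-fold in Ab-ASCs and at least 18.1-fold in PVASCs, and PVASCs were lower than Ab-ASCs by -1.88 (SE 0.192, adjusted p = 1.93e-05). Its neighbour Egr2 was higher in Ab-ASCs than in Sub-ASCs by 3.25. 1700017M07Rik had 1.96, 2.17 and 2.16 CPM in PVASCs, 4.73, 5.91 and 5.35 CPM in Ab-ASCs, and at most 0.12 CPM in Sub-ASCs. 6430584L05Rik had 3.49, 3.91 and 3.39 CPM in Ab-ASCs, 0.64 to 0.86 CPM in PVASCs and 0.04 to 0.42 CPM in Sub-ASCs, and its PVASC value against Sub-ASCs of 1.70 became 2.56 without Sub-ASC replicate 3. The 8 mesothelial markers and the 4 smooth muscle markers had their highest sums in Ab-ASCs, and their part was not tested.

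In Sub-ASCs the first were AW112010, E330013P04Rik, 2600014E21Rik, 9330175E14Rik, Gdap10 and Gm26669. E330013P04Rik on chromosome 19 had 0.40, 0.44 and 0.57 CPM in PVASCs, 0.70, 1.16 and 1.34 CPM in Ab-ASCs, and 19.2, 18.3 and 18.7 CPM in Sub-ASCs. The 3 ranges were separate, and the log2 fold change against Sub-ASCs was -5.30 for PVASCs (SE 0.167, adjusted p = 2.32e-11) and -4.11 for Ab-ASCs (SE 0.157, adjusted p = 1.4e-10). Gdap10 lies within Nampt, an enzyme gene of NAD synthesis, on chromosome 12. It had 1.83, 1.49 and 2.10 CPM in PVASCs, 0.38, 1.29 and 1.38 CPM in Ab-ASCs, and 22.8, 26.0 and 21.01 CPM in Sub-ASCs. It was lower in PVASCs (-3.68, SE 0.197, adjusted p = 3.82e-09) and in Ab-ASCs (-4.47, adjusted p = 2.62e-09) than in Sub-ASCs, and Nampt gave -3.06 and -3.23. The PVASC value against Ab-ASCs of 0.79 (adjusted p = 0.0454) did not pass without Ab-ASC replicate 1 (0.44, adjusted p = 0.118), PVASC replicate 1 or 3, or any 1 Sub-ASC library. It also did not pass with the replicate number as a block (0.80, adjusted p = 0.0579) or with only the groups compared (0.87, adjusted p = 0.0802).

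Gm26669 overlaps Zfp36l1, an RNA decay factor, and had 0.14 to 0.25 CPM in PVASCs, 3 reads in all in Ab-ASCs, and 1.89, 2.59 and 2.40 CPM in Sub-ASCs. Zfp36l1 was lower in PVASCs by -2.67 and in Ab-ASCs by -2.76 than in Sub-ASCs. 2600014E21Rik had 0.06 to 0.21 CPM in PVASCs, 1 read in all in Ab-ASCs, and 2.10, 2.87 and 2.02 CPM in Sub-ASCs, with a ratio of 148 between Sub-ASCs and Ab-ASCs (counting interval 26.3 to 5890). The sums of the adipocyte markers and of the interferon response genes given above were highest in Sub-ASCs too, and their part was not tested.

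**Figure D4:**
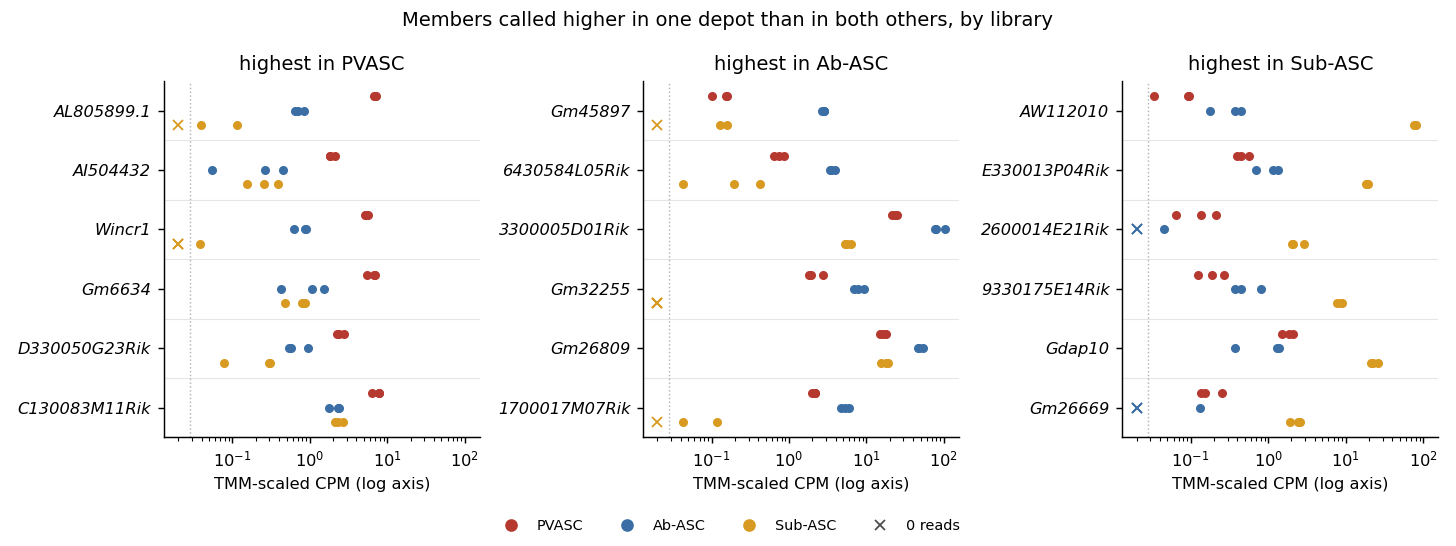
The 6 lincRNAs per depot with the largest smaller fold change against both other depots, in TMM-scaled CPM on a log axis, 1 point per library and crosses for 0 reads. AW112010 spans the widest range, from 0.03 to 0.10 CPM in PVASCs to 76.8 to 81.8 CPM in Sub-ASCs.

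Among members lowest in 1 depot were some that were almost unread there. In Sub-ASCs, besides Wincr1 and Gm32255, Gm15228 on the X chromosome had 1 read in all, against 3.05 to 3.93 CPM in PVASCs and 4.40 to 4.504 CPM in Ab-ASCs. The ratio was 251 for PVASCs (counting interval 44.6 to 9930) and 334 for Ab-ASCs (counting interval 59.4 to 13200), and its neighbour Tmsb4x, which makes thymosin beta, was higher by 3.07 and 3.25. 2010300F17Rik also had 1 read in Sub-ASCs, with 2.75, 3.25 and 3.18 CPM in PVASCs and 1.72, 1.47 and 1.07 CPM in Ab-ASCs. In PVASCs, Gm12796 on chromosome 4 was at 0 to 0.10 CPM, against 0.91 to 1.73 CPM in Ab-ASCs and 3.46 to 4.35 CPM in Sub-ASCs, and was lower by -4.26 (SE 0.495, adjusted p = 1.78e-05) and -5.80 (SE 0.409, adjusted p = 5.69e-08). Gm32219 on chromosome 12 had 0.49, 0.58 and 0.32 CPM in PVASCs, 2.04, 2.49 and 2.27 CPM in Ab-ASCs, and 16.1, 14.7 and 14.3 CPM in Sub-ASCs. It was lower in PVASCs than in Sub-ASCs by -5.02 (SE 0.161, adjusted p = 2.79e-11) and than in Ab-ASCs by -2.30 (adjusted p = 2.37e-06). In Ab-ASCs, 2310001H17Rik had 0.75, 0.40 and 0.36 CPM, against 2.23 to 2.74 CPM in PVASCs and 5.62 to 7.44 CPM in Sub-ASCs, and was lower than in Sub-ASCs by -3.73 (SE 0.237, adjusted p = 1.95e-08).

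Since several members followed the gene beside them, each member was set against its nearest protein-coding gene. The gene lay head to head for 39 members, overlapped 27, lay downstream or upstream on the same strand for 53 and tail to tail for 25. The median gap was 3442 bases, 89 neighbours lay within 10 kb, and 22 lay head to head within 1 kb. The neighbour was tested for 114 members. In 77 of 114 (67.5%) the member and its neighbour had log2 fold changes of the same sign for PVASCs against Sub-ASCs, in 73 (64.0%) for PVASCs against Ab-ASCs and in 77 (67.5%) for Ab-ASCs against Sub-ASCs. Where both were called, the sign was the same in 56 of 73, 32 of 47 and 60 of 80. Spearman's rho across the 114 pairs was 0.52, 0.46 and 0.47, and Pearson's r 0.61, 0.62 and 0.62, given as a description, since pairs share libraries and some share reads. With the overlapping pairs left out, 64, 62 and 62 of 97 had the same sign. Among 252 other tested lincRNAs the shares were 68.7%, 52.4% and 62.3%, and whether the members differ from them was not tested.

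Not every member followed its neighbour. 1700020I14Rik was lower in PVASCs and in Ab-ASCs than in Sub-ASCs, whereas its neighbour Oip5, a gene of cell division, was higher by 2.47 and 2.99. Ptgs2os2 was level between PVASCs and Ab-ASCs at 0.08, whereas Ptgs2 was at -1.0. Snhg18, head to head with Sema5a at 148 bases, was lower in PVASCs than in Ab-ASCs by -0.25 (adjusted p = 0.0301, not passed under several other settings) and Sema5a was higher by 1.54. With library totals unscaled the Snhg18 value was only -0.02 (adjusted p = 0.834). Gm17501, named here after its values were seen, had 29.0, 26.9 and 29.0 CPM in PVASCs, 40.7, 38.5 and 40.3 CPM in Ab-ASCs, and 2.88, 2.91 and 3.28 CPM in Sub-ASCs. It starts 331 bases head to head from Cyr61, a matricellular protein gene. Its values of 3.22, -0.49 and 3.72 for PVASCs against Sub-ASCs, the same against Ab-ASCs, and then Ab-ASCs against Sub-ASCs stood beside 2.15, -0.94 and 3.09 for Cyr61.

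**Figure D5:**
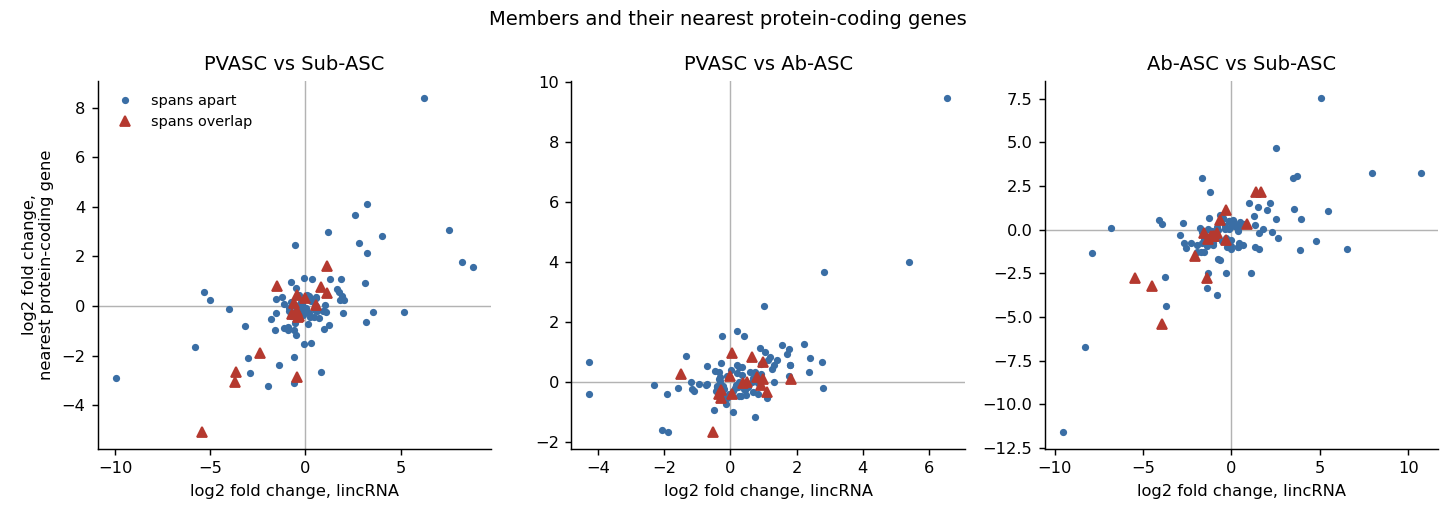
log2 fold change of each lincRNA against that of its nearest protein-coding gene for 114 pairs in 3 comparisons, with overlapping pairs marked. The sign is the same in 77, 73 and 77 pairs, and members at the edges depend on the prior count where a group had few reads.

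Members near each other on a chromosome were also set side by side. Wincr1 and AL805899.1 were both high in PVASCs, with log2 fold changes of 2.76 and 3.22 against Ab-ASCs. D330050G23Rik on chromosome 2 had 2.78, 2.27 and 2.39 CPM in PVASCs and at most 0.94 CPM elsewhere, and Gm29340, 59784 bases away and named after its values were seen, gave 3.83 against Sub-ASCs beside its 3.42. Gm12796 and E130102H24Rik lie 24786 bases apart near Jak1, a kinase of cytokine receptors. Both were lower in PVASCs than in Sub-ASCs, at -5.80 and -3.17, where Jak1 was at -1.64, whereas against Ab-ASCs Gm12796 fell by 4.26 and E130102H24Rik, at 0.75, was not called but passed without Ab-ASC replicate 2 (1.29, adjusted p = 0.0224). Without Ab-ASC replicate 1 it was at 0.43.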

How the data were processed

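The authors deposited raw read counts per gene for 9 bulk mRNA libraries, with gene length, position and biotype, without normalization. The submitters' processing notes name CASAVA 1.8, Bowtie 0.12.2 and featureCounts 1.5.0-p3, and the builds mm8 and mm10 without their roles. Spans of 98.1% of the genes equal GENCODE M21 on GRCm38, whose coordinates are given. Libraries were made with a kit that does not mark strand. The total count per library was 20524173 to 29881036, and intervals and floors (3 reads per library) cover counting error only.

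Counts were filtered by filterByExpr, scaled by TMM and tested with edgeR 4.0.16 (limma 3.58.1, R 4.3.3) by glmQLFit and glmQLFTest on all 9 libraries without covariates, with Benjamini-Hochberg adjustment over 16526 genes and a threshold of 0.05. The procedure was run on simulated counts in which 200 genes were changed. Far more genes were called in the data, a setting that the simulation did not cover. FPKM was calculated as TMM-scaled CPM per kilobase of gene length. Tables and plots used Python 3.11.15, pandas 2.3.3, numpy 2.4.6, scipy 1.17.1 and matplotlib 3.10.9. Named members were those in 7 lists of non-coding genes, those holding a microRNA, the 6 highest and 4 lowest per depot, the 6 highest by FPKM and those at the cut, with their neighbours. Members and lists were chosen with earlier results of these data known. Alternatives were DESeq2 1.42.0, RLE factors, other count filters, pairs of groups only, a replicate block, other membership cuts, and leaving out replicates. Library totals without TMM and members sharing no exon bases were alternatives chosen after seeing the data.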

Additional observations from a re-analysis of the deposited data

How the results depend on the processing

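Over 55 named members and 17 settings, 2583 of 2732 values kept their side of the threshold, 24 of them with a change of sign while not called, 123 no longer passed and 25 passed newly. The 1 called value that changed sign was Snhg12 in PVASCs against Ab-ASCs at 0.02 (adjusted p = 0.875) with library totals without TMM. That scaling moved the median of all genes to 0.15, 0.17 and -0.09 in the order PVASCs against Sub-ASCs, the same against Ab-ASCs, and then Ab-ASCs against Sub-ASCs, from -0.01, -0.06 and -0.03. The median of the members moved to 0.13, 0.57 and -0.39, from -0.02, 0.35 and -0.32. The same scaling gave 103, 96 and 117 members called, split as 59 higher and 44 lower, 75 and 21, and 47 and 70. In the same order, counts of calls were 102, 89 and 112 with DESeq2, 112, 93 and 117 with RLE factors, 112, 95 and 116 without a filter, 116, 87 and 112 with only the groups compared, and 103 to 117, 84 to 101 and 111 to 116 when each replicate was left out. With at least 10 reads in every library they were 83, 67 and 86 of fewer members tested. The replicate block gave 109, 91 and 115, and correlations of same-numbered libraries of -0.05 to 0.10 did not show that the numbers pair them.

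Counts changed by over 1.5 times only under settings that by construction change the members counted or ask for a larger fold. With a log2 fold change of 1 or more in size, 62 were called for PVASCs against Sub-ASCs, 39 higher and 23 lower, beside about 5330 of all 16526 genes. For PVASCs against Ab-ASCs 45 were called, 31 higher and 14 lower, beside about 2550 of all genes. At this size 12, 9 and 22 were higher than both others in PVASCs, Ab-ASCs and Sub-ASCs, where the share of all genes was not counted. At least 10 reads left 18 in PVASCs and 11 in Ab-ASCs. A cut of 1 CPM gave 259 members, with 188 and 196 called against Sub-ASCs in PVASCs and Ab-ASCs. The single test for any difference among depots (in any, below) called 217, and 47 and 84 were highest in PVASCs and Sub-ASCs. A cut of 5 CPM gave 67 members, with 56, 50 (30 higher and 20 lower) and 56 called, 61 in any, and 14 and 25 highest in PVASCs and Sub-ASCs. The 57 members at 2 CPM in every depot gave 42, 36 and 41, 48 in any, and 10, 9 and 16 highest in PVASCs, Ab-ASCs and Sub-ASCs. The 71 that overlap no other gene gave 57, 47 and 55, 63 in any, and 14, 11 and 23. The 90 that share no exon bases gave 71, 62 and 71, 79 in any, and 18 and 30 in PVASCs and Sub-ASCs. Without Malat1 the mean summed level fell from 2900 to 1554 CPM in PVASCs, from 2160 to 1441 in Ab-ASCs and from 3652 to 1750 in Sub-ASCs.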
